A study of Mus musculus with 5 samples.

Results

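The genes described here encode the receptors for GABA and glycine, the cation-chloride cotransporters that set neuronal chloride, and the scaffold gephyrin. They were chosen by name, 26 genes in all, and 24 of them had at least 1 probe set that the platform annotation assigns to that single gene. These 24 were among 18193 such genes on the array and were read by 55 of the 45037 probe sets tested. Gabrr3 and Gabbr2 were not analysed here. For a gene with several probe sets, the brightest one (by its mean of the 5 arrays) stands for the gene, and the others served as a check.

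RNA came from the dorsal lateral geniculate nucleus (dLGN), the visual relay of the thalamus, dissected from newborn mice (postnatal day 0) on a C57BL/6 background. The comparison set 2 pools homozygous for a Sema6A knock-out (Sema6A-/-) against 3 control pools that were heterozygous for it. Every control therefore also carried 1 disrupted copy of Sema6a, a gene for a transmembrane axon guidance protein. Each pool joined tissue of pups of 1 genotype from different litters, and the labels give neither the number of pups nor their sex. The values are log2 expression values made with RMA, so a difference of 1 is a doubling, and p-values measure the spread between these pools. Permuting the labels of 2 and 3 pools exactly cannot give a p below 0.1.

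GABA-A receptors are chloride channels built of subunits from several families, typically alpha and beta subunits with a gamma or delta subunit, and the subunit mix sets their affinity, kinetics and place at or outside the synapse. Glycine receptors are related channels of alpha and beta subunits, while GABA-B receptors signal through G proteins. The direction of chloride flow depends on the cotransporter NKCC1 (Slc12a2), which brings chloride into cells, and KCC2 (Slc12a5), which extrudes it. In immature neurons a high NKCC1 to KCC2 ratio makes GABA depolarising, and subunit use changes as circuits mature. Relay neurons of the thalamus receive such input from GABAergic neurons of the reticular and ventral lateral geniculate nuclei and from local interneurons.

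The arrays matched their labels and differed in some features that touch the receptor genes. Sema6a read 7.81 and 7.85 in the knockout pools against 10.39 to 10.65 in the controls, a log2 fold change of -2.68 (limma adjusted p = 0.0236). All 10 relay neuron markers reached 6.41, the median of all probe sets, with Slc17a6, Tcf7l2, Lef1 and Rora above 12 in every array. For 4 of these 10 (Tcf7l2, Gbx2, Prox1 and Foxp2) both knockout pools lay above every control, beside 15.8% of all genes. For 2 (Rora and Slc6a4) they lay below, beside 13.9%. Gbx2 read 9.02 and 11.22 in the knockout against 6.95 to 8.86, and Foxp2 12.64 and 13.09 against 12.33 to 12.47. Slc6a4 read 7.98 and 10.60 against 10.60 to 10.85, and Rora 12.36 and 12.19 against 12.58 to 12.68. Tcf7l2 and Prox1 separated by only 0.02 each and Slc6a4 by 0.0054. Array medians lay between 6.39 and 6.42, and correlations between arrays between 0.985 and 0.995. For all 18 microglia markers both knockout pools lay above the controls, beside 15.8% of all genes. The log2 of the summed level of these markers was 14.35 and 13.99 against 12.11 to 12.43. The 21 measured GABAergic and prethalamic markers split the knockout pools: their median deviation from the control mean was 2.39 in replicate 1 but 0.11 in replicate 2. The log2 of their summed level was 13.64 and 11.55 against 10.97 to 11.76. For 9 of the 21 both knockout pools lay above every control, beside 15.8% of all genes, and 6 of the 9 reached the median level. Among the 9 were Npy (10.85 and 8.01 against at most 7.54), Sst (10.33 and 7.47 against at most 7.07) and Isl1 (9.12 and 4.59 against at most 3.94). Others separated by less, such as Lhx5 and Otx2 by 0.02 each and Nkx2-2 by 0.04. Replicate 1 of the knockout also had the widest gap between the 3′ and 5′ control probe sets of Gapdh, 2.34, where the controls had 0.77 to 1.33.

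**Figure D1:**
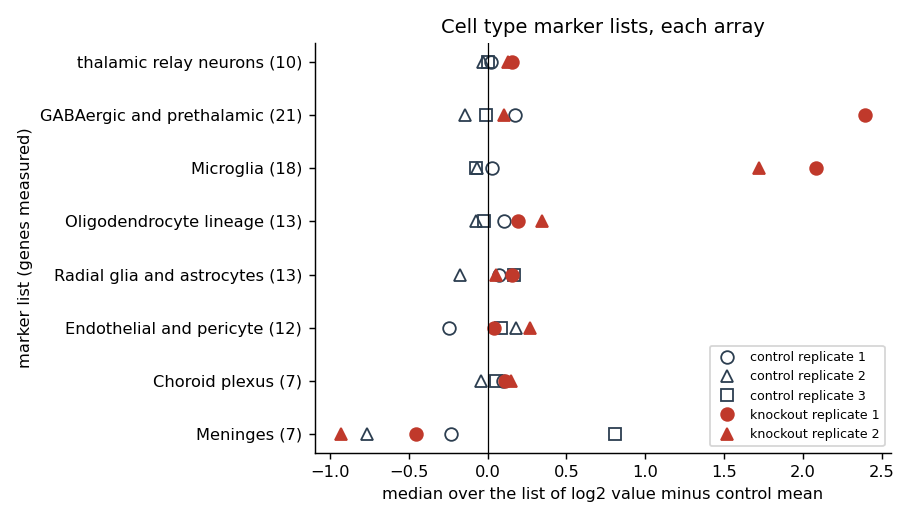
Median over each marker list of the log2 expression value minus the control mean (x axis) for each array; filled red symbols are the 2 knockout pools and open symbols the 3 control pools, with the number of genes measured in brackets. Microglia markers lie at 2.09 and 1.72 in the knockout pools, while GABAergic and prethalamic markers lie at 2.39 in knockout replicate 1 and at 0.11 in replicate 2.

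Several receptor subunits were higher in both knockout pools and a few lower, but 0 of the 24 genes passed an adjusted p of 0.05 in limma, where 0.104% of all genes did. The widest differences were those of Glra3 (1.38 on the log2 scale) and Gabrg1 (1.10) on the higher side and Gabrg3 (-0.65) on the lower side. The lowest adjusted p among the 24 genes was 0.137, for Gabrg1. At an unadjusted p under 0.05 there were 5 genes higher (Gabra2, Gabra4, Gabrb1, Gabrg1 and Glra3), beside 6.9% of all genes. On the same basis 1 gene was lower (Gabrg3), beside 4.9% of all genes. Among the genes that reach the median level, the shares were 7.95% and 5.82%. With knockout replicate 1 or any 1 of the 3 controls left out, only Gabrg1 and Glra3 stayed on the higher side at that level, and without knockout replicate 2 there were 6 genes, Slc12a2 being added. Gabrg3 was the 1 lower gene in each of these fits.

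Both knockout pools lay above every control for 7 of the 24 genes (Gabra2, Gabra3, Gabra4, Gabrb1, Gabrb2, Gabrg1 and Glra3), against 15.8% of all genes. They lay below every control for 4 genes (Gabrg3, Gabre, Gabrr2 and Slc12a5), against 13.9% of all genes. Of the genes that reach the median level, 17.6% lay above and 16.1% below every control. The median log2 fold change over the 24 genes was 0.01, as over all genes (0.01). Among genes that reach the median level it was 0.19 for those described here and 0.004 for all, which was not tested. By array, the median deviation of the former from the control mean was 0.21 in knockout replicate 1 but -0.02 in replicate 2. A mean level at or above the median of all probe sets in at least 1 group was reached by 15 of the 24 genes, and these hold all 7 of the genes above the controls. The other 9 genes (Gabra6, Gabrd, Gabre, Gabrp, Gabrq, Gabrr1, Gabrr2, Glra1 and Glra4) stayed below that level in both groups. In these tissue pools less RNA per cell and fewer cells of a type cannot be told apart.

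**Figure D2:**
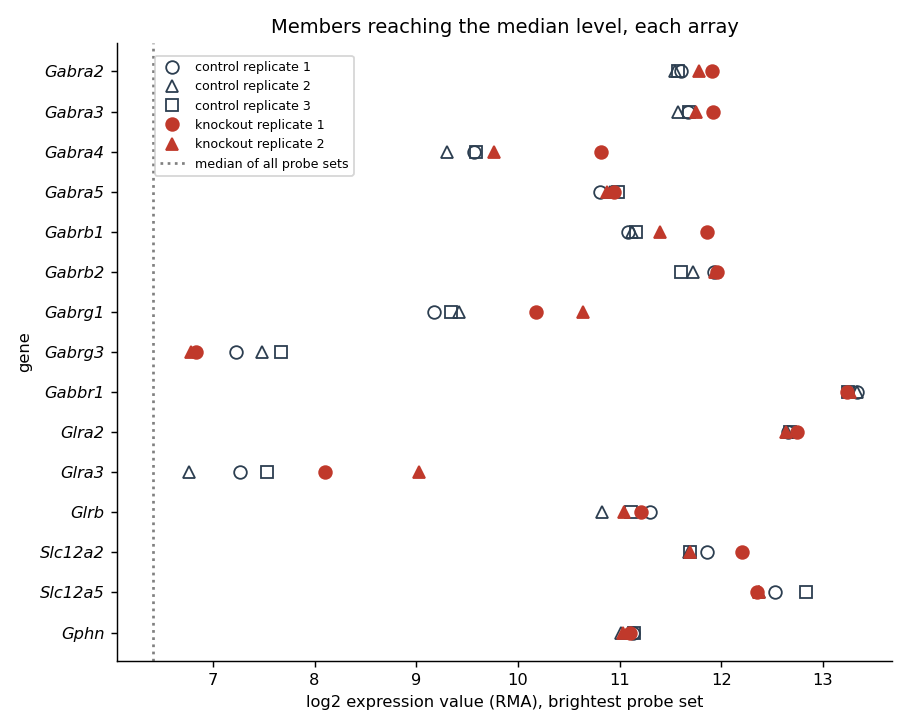
Log2 expression value (RMA) of the brightest probe set of each of the 15 genes that reached the median level, for every array; filled red symbols are the 2 knockout pools, open symbols the 3 controls, and the dotted line is the median of all probe sets, 6.41. Gabrg1 shows a clear gap between the groups, and Glra3 a gap of 0.57 that is smaller than the range of either group. Gabra4 and Gabrb1 are widest in knockout replicate 1, and Gabrg3 is lower in both knockout pools.

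**Figure D3:**
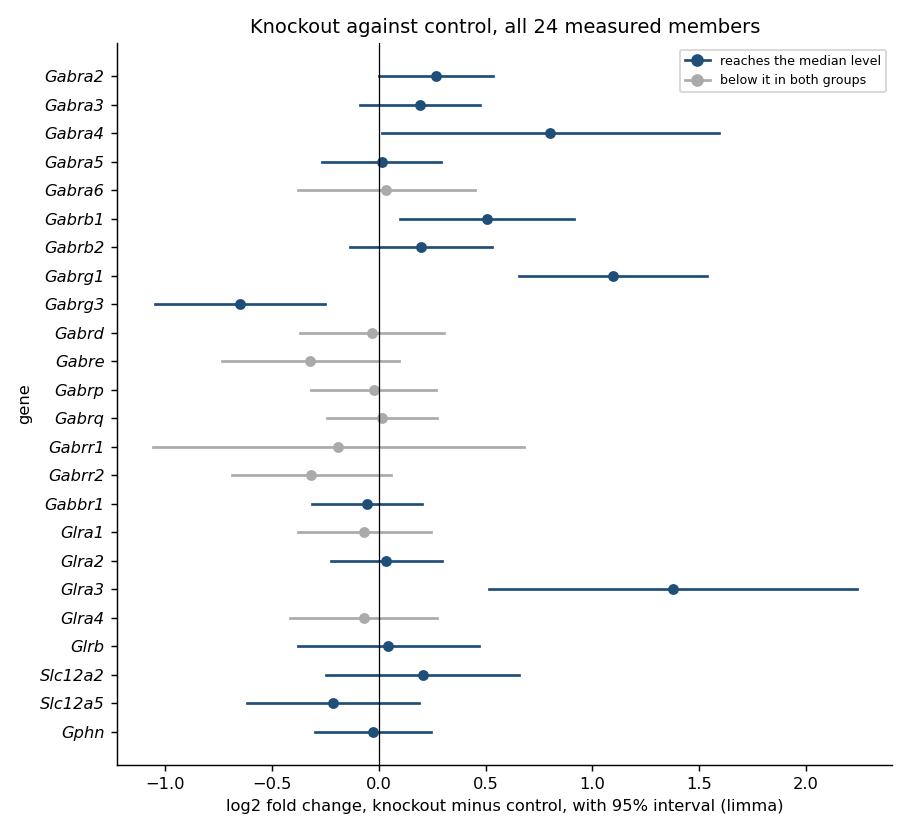
Log2 fold change, knockout minus control, of the brightest probe set of each of the 24 genes with its 95% interval from limma; grey marks the 9 genes below the median level in both groups. The intervals of Glra3, Gabrg1, Gabrb1, Gabra4, Gabra2 and Gabrg3 leave out 0, before adjustment for the number of probe sets tested.

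The gamma subunits differed in opposite directions. Gabrg1 encodes the gamma1 subunit, a less common alternative to the widespread gamma subunit of synaptic receptors. It read 10.18 and 10.64 in the knockout pools and 9.18, 9.42 and 9.34 in the controls. The groups did not overlap, and the gap of 0.75 between the lowest knockout and the highest control pool exceeded the range of either group. The difference was 1.10 (2.14-fold; SE 0.18, 95% interval 0.66 to 1.54; limma adjusted p = 0.137). The second probe set of Gabrg1 gave 9.77 and 10.12 against 8.48, 8.78 and 8.13, a difference of 1.48 (limma adjusted p = 0.131), so both probe sets of the gene separated the groups. Gabrg1 was 0.86 to 1.33 higher in each of the 13 alternative fits. With only knockout replicate 1 the difference was 0.86, and with only replicate 2 it was 1.33. Microglia markers were higher in both knockout pools and GABAergic markers mainly in replicate 1. Oligodendrocyte lineage markers had a median deviation of 0.19 in knockout replicate 1 and 0.34 in replicate 2. Of these 13 markers 7 lay above and 2 below every control, beside 15.8% and 13.9% of all genes. The part of any of these lists in the difference was not tested.

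Gabrg3 encodes the gamma3 subunit. Its brightest probe set read 6.83 and 6.78 in the knockout pools and 7.22, 7.48 and 7.67 in the controls, so both knockout pools lay below every control. The difference was -0.65 (1.57-fold; SE 0.16, 95% interval -1.05 to -0.25; limma adjusted p = 0.262). The mean of its probe sets gave -0.41. All 4 of its probe sets were lower on average in the knockout, and at 3 of them both knockout pools lay below every control. At 1 of these 3 the gap was only 0.024, at values of 4.56 to 4.78, below the median level. The second brightest probe set was as clear as the brightest, with 5.98 and 6.12 against 6.59 to 6.67. Its difference was -0.58 (limma adjusted p = 0.177), with the knockout pools below the array median of 6.41. A further probe set shared with the gene model 6330406O05Rik was not counted for Gabrg3. It read 9.59 and 9.82 in the knockout and 9.57 to 10.54 in the controls, where the groups overlapped.

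The alpha subunits, which with beta subunits form the GABA binding site, were higher or close to the controls. Gabra4, the alpha4 subunit that is typical of extrasynaptic receptors in thalamic relay neurons, read 10.81 and 9.77 in the knockout pools against 9.57, 9.30 and 9.59. Both knockout pools exceeded the controls, but replicate 2 by only 0.18, and the knockout pools lay further apart than the group means. The difference was 0.80 (SE 0.32, 95% interval 0.01 to 1.59; limma adjusted p = 0.442), and it was 0.28 without knockout replicate 1 and 1.33 without replicate 2. Its second probe set read 8.34 and 7.30 against 7.13 to 7.77, where the groups overlapped. The 2.39 median of GABAergic markers in knockout replicate 1 stands beside the high value of Gabra4 in that pool, and its part was not tested.

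Gabra2, the alpha2 subunit of early synaptic receptors, read 11.91 and 11.78 in the knockout pools and 11.61, 11.55 and 11.58 in the controls. The gap of 0.17 between the groups exceeded the range of either, for a difference of 0.27 (95% interval 0.002 to 0.53; limma adjusted p = 0.445). All 5 probe sets of Gabra2 were higher on average in the knockout, and 4 of them separated the groups. Apart from the brightest, these separated by only 0.010 to 0.036, and 3 of the 5 probe sets reached the median level. Gabra3, the alpha3 subunit, read 11.92 and 11.75 against 11.67, 11.58 and 11.68, a difference of 0.19 (95% interval -0.09 to 0.47) with a gap of 0.07 between the groups. Without knockout replicate 1 it was 0.11. Gabra5, the alpha5 subunit, did not separate the groups, with 10.95 and 10.87 against 10.81 to 10.98. Its difference was 0.01, with a 95% interval of -0.27 to 0.29. Gabra6, a subunit of cerebellar granule cells, read 2.83 and 2.38 against 2.51 to 2.67, far below the array median in every pool.

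The beta subunits were both higher on average. Gabrb1, the beta1 subunit, read 11.86 and 11.40 in the knockout pools and 11.08, 11.12 and 11.16 in the controls. The groups did not overlap, and the knockout pools lay further apart than the controls. The difference was 0.51 (1.42-fold; SE 0.16, 95% interval 0.10 to 0.91; limma adjusted p = 0.366), and it was 0.27 without knockout replicate 1. The second probe set gave 11.73 and 11.26 against 10.97 to 11.18, a difference of 0.43. Gabrb2, the beta2 subunit, read 11.96 and 11.94 against 11.93, 11.73 and 11.61. The gap to the nearest control was 0.013, less than the range of the controls. Its difference of 0.20 had a 95% interval of -0.14 to 0.53, and its 5 probe sets gave 0.14 to 0.21. Without control replicate 3 it was 0.12.

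Subunit genes of GABA-A receptors lie in clusters, and 4 of the genes described here follow each other on chromosome 5 in the order Gabrg1, Gabra2, Gabra4 and Gabrb1. For all 4 both knockout pools lay above every control, against 17.6% of the genes that reach the median level. This grouping was chosen after the values were seen and has no test. The 1 other protein-coding gene within the cluster, Cox7b2, read 7.30 and 5.56 in the knockout and 4.92 to 5.52 in the controls, so it separated too, with a gap of 0.04. Of the 3 protein-coding genes on either side, Guf1, Gnpda2, Corin and Nfxl1 overlapped between the groups, while Yipf7 (0.13 higher, far below the median level) and Commd8 (0.16 higher) did not. The size of the difference varied along the cluster, from 1.10 for Gabrg1 to 0.27 for its neighbour Gabra2. The knockout pools also took a different order: replicate 2 was the higher one for Gabrg1, and replicate 1 for Gabra2, Gabra4 and Gabrb1.

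In each other cluster at most 1 gene at or above the median level separated the groups. Gabrg3 and Gabra5 are neighbours on chromosome 7, and only Gabrg3 separated the groups. On chromosome 11 Gabrb2 follows Gabra6, which stayed below the median level. On the X chromosome Gabra3 lies between Gabre and Gabrq, which both stayed below that level, at 2.84 to 3.51 and at 3.03 to 3.10. On chromosome 4 the neighbours Gabrr2 and Gabrr1 were also below it.

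**Figure D4:**
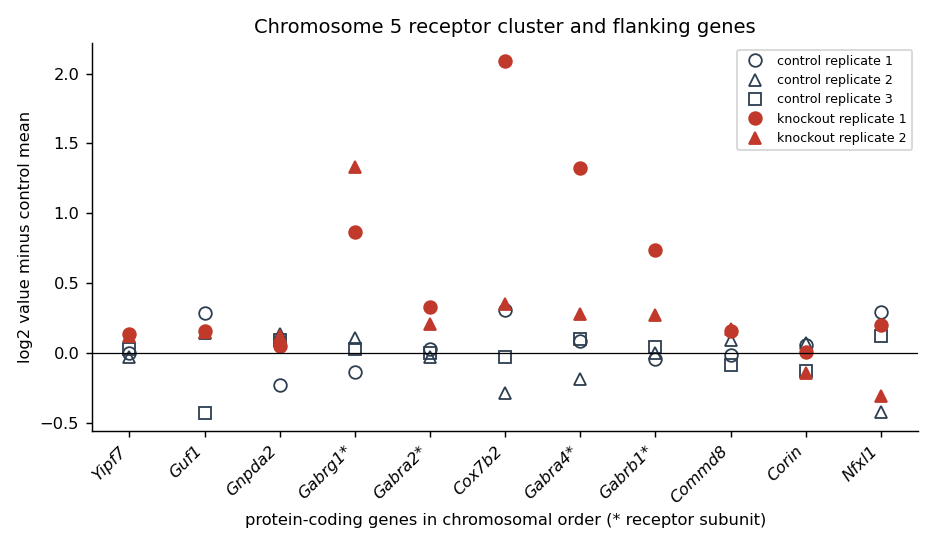
Log2 expression value minus the control mean (y axis) of the 4 receptor subunits on chromosome 5, the gene between them and 3 protein-coding genes on either side, in chromosomal order; filled red symbols are the 2 knockout pools and open symbols the 3 controls. The receptor subunits lie above the controls in both knockout pools, with replicate 2 highest for Gabrg1 (1.33) and replicate 1 highest for Gabra4 (1.33) and Gabrb1 (0.74).

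The stretches before the starts of these 4 genes are shown because the genes are neighbours and were all higher, while their upstream sequence differs. Each holds the 150 bases before the annotated first base in RefSeq (GRCm38.p6), 5′ to 3′ on the gene's strand, with CpG dinucleotides in capitals.
Gabrg1, chr5:70842618-70842767, minus strand: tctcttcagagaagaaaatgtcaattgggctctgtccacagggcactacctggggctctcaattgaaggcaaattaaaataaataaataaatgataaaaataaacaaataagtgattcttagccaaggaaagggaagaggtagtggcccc
Gabra2, chr5:71095850-71095999, minus strand: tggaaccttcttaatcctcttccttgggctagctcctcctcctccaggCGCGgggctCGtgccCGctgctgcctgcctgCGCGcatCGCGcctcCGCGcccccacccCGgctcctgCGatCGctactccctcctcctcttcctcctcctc
Gabra4, chr5:71658309-71658458, minus strand: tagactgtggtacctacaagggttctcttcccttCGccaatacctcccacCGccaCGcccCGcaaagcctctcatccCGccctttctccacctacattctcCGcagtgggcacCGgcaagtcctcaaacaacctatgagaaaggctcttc
Gabrb1, chr5:71657771-71657920, plus strand: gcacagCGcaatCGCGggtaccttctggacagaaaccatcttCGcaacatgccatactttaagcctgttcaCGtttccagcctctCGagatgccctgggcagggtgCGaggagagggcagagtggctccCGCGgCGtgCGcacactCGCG
The sequence before Gabrg1 holds 0 CpG, as do 14.3% of 32851 promoter windows of this length, and has a GC content of 38.7%. Those before Gabra2 and Gabrb1 hold 13 CpG each, a number reached by 20.3% of the windows, and the one before Gabra4 holds 7, where the median is 4. Gabra4 and Gabrb1 are read in opposite directions from starts that lie 387 bases apart, and their annotated spans overlap at these starts. A second annotated start of Gabrb1 has 5 CpG. In all, 23 of the 26 genes had a window that was read.

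The remaining subunits of GABA-A receptors gave little signal. Gabrd, the delta subunit that pairs with alpha4 in extrasynaptic receptors of the mature thalamus, read 4.87 and 5.18 in the knockout pools against 4.99 to 5.12. Its second probe set overlapped between the groups as well, and both were below the median level in every pool. Gabrp, the pi subunit, read 3.88 and 3.98 against 3.86 to 4.06, and Gabrq, the theta subunit, 3.03 and 3.10 against 3.03 to 3.10. Gabre, the epsilon subunit, was lower at 2.84 and 3.03 against 3.12 to 3.51, and so was the rho subunit Gabrr2 at 2.96 and 2.81 against 3.07 to 3.42. These differences of -0.32 each lie at levels far below the median and did not pass the test (limma adjusted p = 0.546 and 0.513). They were -0.19 for Gabre without control replicate 2 and -0.21 for Gabrr2 without control replicate 1. Gabrr1, the rho1 subunit, read 3.90 and 4.35 against 3.68 to 4.76.

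Of the GABA-B receptor, the subunit Gabbr1, which binds GABA, read 13.23 and 13.27 in the knockout pools and 13.33, 13.34 and 13.25 in the controls. The groups overlapped, and the difference was -0.05 (95% interval -0.31 to 0.20). Its other probe sets did not give 1 answer: one was 0.13 higher, with 11.33 and 11.23 against 11.02 to 11.21, and another 0.48 lower, with 9.02 and 9.50 against 9.50 to 10.15. The probe sets of Gabbr1 therefore differed in direction, and none passed the test.

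Among the glycine receptor subunits Glra3 stood apart from the others. Glra3, the alpha3 subunit, read 8.10 and 9.03 in the knockout pools and 7.26, 6.77 and 7.53 in the controls. Both knockout pools exceeded every control, by at least 0.57, but the pools also spread widely within each group. The difference was 1.38 (2.60-fold; SE 0.35, 95% interval 0.52 to 2.24; limma adjusted p = 0.270). It was 0.92 with knockout replicate 1 alone, 1.84 with replicate 2 alone and 0.82 when the probe sets of Glra3 were averaged. Microglia markers were higher in both knockout pools, oligodendrocyte lineage markers less so in the median, and GABAergic markers mainly in replicate 1. Their part was not tested. The second probe set of Glra3 lay between 3.22 and 4.06, below the median level, and gave 0.27 with overlapping groups.

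For the other glycine receptor genes the groups overlapped at the brightest probe set. Glra2, the alpha2 subunit of the immature receptor, read 12.74 and 12.64 in the knockout pools and 12.65, 12.64 and 12.68 in the controls. Its difference of 0.04 had a 95% interval of -0.22 to 0.29. Glrb, the beta subunit that binds gephyrin, read 11.21 and 11.04 against 11.30, 10.83 and 11.12, a difference of 0.04 (95% interval -0.38 to 0.47). Glra1, the alpha1 subunit of the adult receptor, read 3.88 and 3.95 against 3.87 to 4.13, and Glra4 3.70 to 4.05 over all pools, both below the median level. A second, dimmer probe set of Glra1 gave -0.26 with both knockout pools below every control.

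Of the chloride transporters, neither passed the test. Slc12a2, the chloride importer NKCC1, read 12.20 and 11.69 in the knockout pools and 11.86, 11.68 and 11.69 in the controls, so 1 knockout pool was high and the other lay among the controls. Its difference was 0.21 (95% interval -0.25 to 0.66), and it was -0.05 without knockout replicate 1. A second probe set was lower, with 7.92 and 7.68 against 8.08 to 8.61, a difference of -0.50 (limma adjusted p = 0.436), and another gave 0.02. Slc12a5, the chloride exporter KCC2, read 12.36 and 12.37 against 12.53, 12.37 and 12.83. Both knockout pools lay below the controls by 0.0033, and the difference was -0.21 (95% interval -0.62 to 0.19). Without control replicate 3, the highest pool, it was -0.087. Its second probe set, below the median level, gave -0.44 with overlapping groups.

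The balance of the transporters was compared as the Slc12a5 value minus the Slc12a2 value within each array, which tells only whether the 2 genes changed unequally. It was 0.15 and 0.68 in the knockout pools and 0.67, 0.69 and 1.14 in the controls. The mean was 0.42 ± 0.37 (SD, n = 2) in the knockout and 0.84 ± 0.27 (SD, n = 3) in the control, a difference of -0.42 (exact two-sided permutation p = 0.2, with 0.1 the smallest possible). The groups overlapped, and the difference was -0.16 without knockout replicate 1 and -0.68 without replicate 2. It was -0.27 without control replicate 3 and -0.24 when the probe sets of each gene were averaged, so its size rested on single pools of both groups and on the probe sets used. Knockout replicate 1, with the lowest balance, also had the high GABAergic markers and the high 3′ to 5′ difference of Gapdh, whose part was not tested.

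Gphn encodes gephyrin, the scaffold that anchors glycine receptors and many GABA-A receptors at synapses. Its brightest probe set read 11.10 and 11.04 in the knockout pools and 11.13, 11.01 and 11.14 in the controls, a difference of -0.03 (95% interval -0.30 to 0.24). A second probe set disagreed, with 8.95 and 9.34 in the knockout and 9.57, 9.76 and 9.72 in the controls. There both knockout pools lay below every control, a difference of -0.54 (limma adjusted p = 0.324). One more gave 0.11, so the probe sets of Gphn did not share a direction.

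Of the 55 probe sets, 0 reached an adjusted p under 0.05 in limma, beside 0.0733% of all probe sets, and the lowest adjusted p was 0.131. At an unadjusted p under 0.05 7 were higher, beside 5.16% of all probe sets, and 4 were lower, beside 5.99%. Probe sets of a gene pointed the same way throughout for Gabra2, Gabra3, Gabra4, Gabrb1, Gabrb2, Gabrg1, Gabrg3, Glra3, Glrb and Slc12a5, though groups overlapped at some. Below the median level they also did for Glra1. They pointed in both directions for Gabbr1, Gphn and Slc12a2 and, below the median level, for Gabra6, Gabrd and Gabrp. Which part of each transcript the probe sets read was not analysed here.

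**Figure D5:**
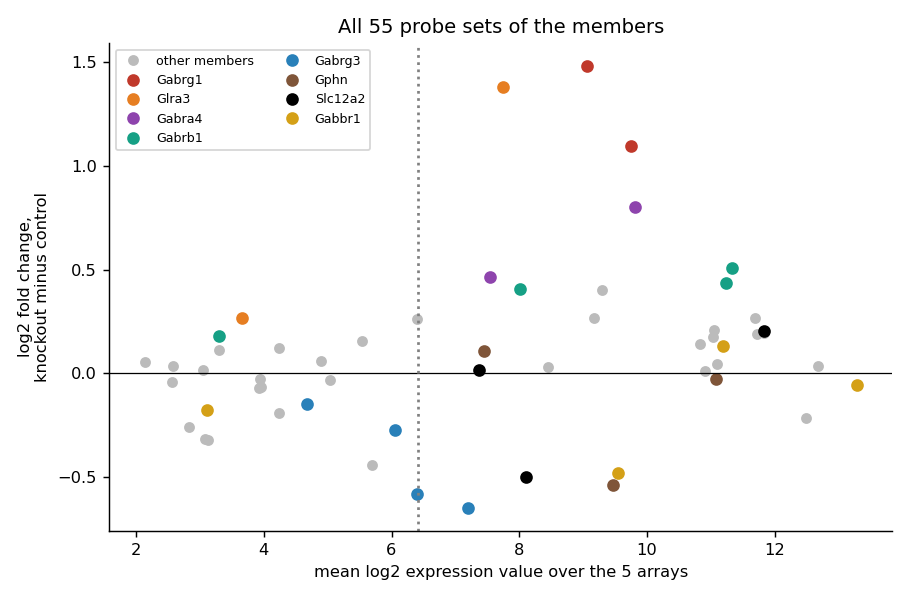
Log2 fold change, knockout minus control (y axis), against the mean log2 expression value over the 5 arrays (x axis) for all 55 probe sets; colours mark 8 genes and the dotted line is the median of all probe sets. Both probe sets of Gabrg1 lie above 1, all 4 of Gabrg3 lie below 0, and those of Gphn, Slc12a2 and Gabbr1 fall on both sides of 0.

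Other genes of inhibitory transmission were counted in the same way. Of 57 listed genes 53 were measured, and 0 passed an adjusted p of 0.05 in limma. Unadjusted, 5 were lower at that threshold, beside 4.9% of all genes, and 1 was higher, beside 6.9%. Their median log2 fold change was -0.05. Both knockout pools lay above every control for 5 of the 53 and below for 7, beside 15.8% and 13.9% of all genes. Among the 10 genes of synthesis, packaging and uptake, Gad1 and Gad2, which encode the enzymes that make GABA, and Slc32a1, which loads it into vesicles, were high in knockout replicate 1 only. Gad2 read 10.31 in that pool but 7.30 in the other knockout pool, where the controls ranged from 7.04 to 8.15. Abat, the transaminase that breaks GABA down, was lower, with 11.14 and 11.29 against 11.88, 11.88 and 11.94. Its groups did not overlap, and the difference was -0.68 (1.61-fold; 95% interval -0.96 to -0.41; limma adjusted p = 0.136).

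Among 7 genes of GABA-B auxiliary subunits and effectors, Kcnj3, a subunit of the potassium channels that GABA-B receptors open, was higher, with 9.36 and 8.92 against 8.12, 8.29 and 8.46. Its difference was 0.85 (1.81-fold; 95% interval 0.40 to 1.31; limma adjusted p = 0.219). Kctd12b was 0.32 higher. Of 17 scaffold, trafficking and auxiliary genes, Iqsec3, a protein of inhibitory synapses, was 0.49 lower in log2 terms, with 10.61 and 10.80 against 11.16 to 11.27 (limma adjusted p = 0.254). Clptm1, which retains GABA-A receptors inside the cell, read 10.02 and 10.77 against 10.73 to 11.17, where the groups overlapped. Among 19 other chloride and bicarbonate genes, Wnk4, of the kinases that regulate the cotransporters, read 8.26 and 7.67 against 8.56 to 9.12 (difference -0.81; limma adjusted p = 0.353). Wnk1, of the same family, was 0.20 higher, and Aldh5a1, which acts after Abat in GABA breakdown, 0.25 higher, neither past the test.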

How the data were processed

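Total RNA (20 ng) from the dLGN, dissected from sections of 200 µm, was amplified and biotin-labelled with Nugen kits for Affymetrix arrays, per the labels' protocols. The authors deposited 1 log2 value per probe set and array. RMA is the tool named in the submitters' processing notes, and its settings were not given in the sources used here. Pools were grouped by the genotype in their titles. RMA equalises array distributions, so a shift shared by most genes would not show. Of 45101 probe sets, 64 array controls were left out, and the platform annotation assigned 34945 of the other 45037 to 1 gene.

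Knockout and control were compared in limma 3.58.1 (lmFit, eBayes; R 4.3.3), with genotype as the only term, two-sided tests and Benjamini-Hochberg adjustment over 45037 probe sets. Intervals are unadjusted 95% intervals of that model. In each of 10 simulated data sets, 200 random probe sets were raised in the knockout, by 2-fold or 4-fold. The residual SD estimated for each probe set in this comparison served as its true SD. An adjusted p under 0.05 in limma then recovered 21.7% of 2-fold and 64% of 4-fold changes, shares that depend on these settings. A gene that did not pass may therefore still differ. The number of arrays limits the precision. All 26 genes are named. Of the other genes of inhibitory transmission, those with the smallest p in each direction, up to 4, at or above the median level are named, and Gad1, Gad2 and Slc32a1 were added with their values known. The genes, lists and rules were chosen with earlier results of these data known. Alternatives were quantile normalisation on top of RMA, centring of arrays, omission of dim probe sets, a trend or robust prior in eBayes, array weights, the replicate number as a block, averaging a gene's probe sets, and each array left out.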

Additional observations from a re-analysis of the deposited data

Results flagged for a closer look

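The array carries control probe sets for both ends of some transcripts, and the comparisons leave them out. For Gapdh, knockout replicate 1 had a 3′ value 2.34 above the 5′ value (log2), past the highest control, at 1.33. For beta-actin the same pool had 1.91, and the controls at most 1.45. In groups of 2 and 3 pools no value was tested for standing apart from its group.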

How the results depend on the processing

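In all 13 alternative fits 0 of the 24 genes and 0 of the 53 other genes of inhibitory transmission passed an adjusted p of 0.05 in limma. Of 303 single-gene values under the alternatives 281 kept their direction, and 12 genes kept it in every fit (Gabra2, Gabra3, Gabra4, Gabrb1, Gabrb2, Gabrg1, Gabrg3, Gabre, Gabrr2, Gabbr1, Glra3 and Slc12a5). The count of genes higher at an unadjusted p under 0.05 was 5, beside 6.9% of all genes. It was 4, without Gabra2, under the robust prior (6.71% of all genes) and under array weights (6.32%). With the replicate number as a block it was 3 (6.72%), and when a gene's probe sets were averaged it was 2 (6.45%). With 1 control array left out it was 2 each time, beside 4.86% to 5.5% of all genes. The median log2 fold change was 0.19 over the 15 genes left without dim probe sets, beside 0.004 over all genes that reach the median level. Over the 24 genes it was -0.020 to 0.069 with 1 array left out. The number of genes above every control was 7; it was 9 without knockout replicate 1 (26.7% of all genes) and 11 without replicate 2 (35.4%). Below every control it was 4, then 7 (26.6% of all genes) and 6 (31.3%). These counts were chosen after seeing the data, and fewer samples make separation easier. With 1 array left out the fold change took both signs for Gabra5 (-0.033 to 0.055), Gabra6 (-0.19 to 0.26), Gabrd (-0.19 to 0.12), Gabrp (-0.075 to 0.026), Gabrq (-0.024 to 0.053), Gabrr1 (-0.51 to 0.035), Glra1 (-0.12 to 0.0080), Glra2 (-0.016 to 0.087), Glra4 (-0.25 to 0.10), Glrb (-0.081 to 0.15), Gphn (-0.069 to 0.0057) and Slc12a2 (-0.052 to 0.46). Averaging probe sets turned Gabra6 (-0.0031), Gabrd (0.013), Gabrp (0.044) and Slc12a2 (-0.091), the extra quantile normalisation Gabrq (-0.0033), and the replicate block Gabrr1 (0.030). The cause of these turns was not tested. The labels do not say that replicate numbers pair pools, and same-numbered pools deviated with correlations of 0.15 and 0.21 over 2 pairs. Signal below the array median limits what the 9 dim genes can show.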
